A study of Mus musculus with 28 samples.

Results

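The hypothalamus and the ventral striatum of *Hdc* mice were compared with each other, gene by gene, in 16 of the 28 RNA-seq libraries of a series on *Hdc*, the gene of histidine decarboxylase, the enzyme that makes histamine. Each region had 3 wild-type (WT) libraries, 3 libraries of *Hdc* heterozygotes (het) and 2 of *Hdc* knockouts (*Hdc*-KO, here KO). The mice were adult males of 2 to 3 months, and the knockout line had been backcrossed to C57Bl/6. All groups were untreated, and the tissue was dissected from the fresh brain, so that each library holds the RNA of every cell type in its block. Libraries were chosen by their region and genotype labels alone, and all genes above 1 CPM (the count of a gene scaled to a fixed library size) in at least 2 of the 16 libraries were tested, 14620 in all. The labels number the libraries 1 to 8 within each region (WT 1 to 3, het 4 to 6, KO 7 and 8). The sources used here do not say whether a number marks the same mouse in both regions or whether libraries of a group came from separate mice. The p-values therefore measure the spread between these libraries.

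The hypothalamus holds many small groups of neurons that make peptide hormones and neuropeptides controlling feeding, sleep, body temperature, water balance and the pituitary. The neurons that make histamine also lie there, in the tuberomammillary nucleus, and send their fibres to the rest of the brain, including the striatum. The ventral striatum, which includes the nucleus accumbens, consists mostly of GABA-releasing spiny projection neurons that receive dopamine and are divided into those with D1 and those with D2 dopamine receptors, along with a few kinds of interneurons.

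Libraries held between 3536802 and 5064759 counts on genes, with medians of 4649945.5 in the hypothalamus and 3990344 in the ventral striatum. The labelled regions carried their defining genes: hypothalamic peptides such as *Hcrt* were at 46.2 CPM or more in every hypothalamus library and at 0.512 CPM or less in every ventral striatum library. *Drd1* was at 63.8 CPM or more in every ventral striatum library and at 5.06 CPM or less in every hypothalamus library. The genotype label was not matched by a loss of *Hdc* reads, since libraries labelled KO had 12.4 and 14.7 CPM in the hypothalamus and 12.4 and 13.7 CPM in the ventral striatum. These counts sum all exons, and the sources used here do not say which part of the gene the knockout removes. Distances between libraries over the 500 genes that differed most in each pair, as a root mean square log2 difference, ran from 2.39 to 3.27 between regions, from 1.28 to 1.71 within the hypothalamus and from 1.39 to 2.17 within the ventral striatum. WT 1 of the ventral striatum lay furthest from its own region, at a median distance of 1.95, against 1.67 for KO 8 there, the next furthest. Other libraries stood apart by marker genes: KO 8 of the hypothalamus carried genes of cortical neurons and KO 8 of the ventral striatum carried genes of peripheral nerve. Het 5 and het 6 of the ventral striatum had 20.7 and 66.0 CPM of *Ttr*, a choroid plexus gene, against at most 3.86 CPM in the other ventral striatum libraries.

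A model with genotype as a covariate called 6715 of the 14620 genes (45.9%) at an adjusted p under 0.05 (edgeR likelihood ratio test, Benjamini-Hochberg adjustment). Of these, 3466 (23.7% of the genes tested) were higher in the hypothalamus and 3249 (22.2%) were higher in the ventral striatum. Hypothalamus calls made up 51.6% of all calls with TMM scaling and 79.3% when libraries were scaled to their totals alone, where the median log2 difference of all genes moved from 0.01 to 0.25. The TMM factors themselves differed by region, from 1.02 to 1.14 in the hypothalamus and from 0.866 to 1.00 in the ventral striatum. A difference of at least 2-fold was called for 1792 genes (12.3%), of which 981 (6.71%) were higher in the hypothalamus and 811 (5.55%) in the ventral striatum. All 8 hypothalamus libraries lay above all 8 ventral striatum libraries for 1243 genes (8.5%), and the reverse held for 1176 genes (8.04%). Differences of at least 8-fold were fitted for 123 genes on the hypothalamus side and 91 on the ventral striatum side. Among the 6715 genes called, 6551 had the same direction in the WT, het and KO libraries taken one at a time. In bulk tissue, fewer cells of a type and less RNA per cell cannot be told apart.

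The promoters of 6 neuropeptide genes are shown, because peptide genes mark both regions. They were chosen for holding 1 of the motifs searched. The sequences are the 120 bases just before the annotated start of each gene, 5′ to 3′ on the strand of the gene, from RefSeq on GRCm38.p6, and capitals mark the letters TATAAA or TGACGTCA where a search of both strands found them. *Hcrt* (chr11:100762932-100763051, minus strand), *Pmch* (chr10:88090952-88091071, plus strand), *Pomc* (chr12:3954825-3954944, plus strand) and *Npvf* (chr6:50654446-50654565, minus strand) were higher in the hypothalamus and hold TATAAA. *Cartpt* (chr13:99900684-99900803, minus strand) was also higher in the hypothalamus, *Sst* (chr16:23890845-23890964, minus strand) was higher in the ventral striatum, and both hold TGACGTCA, the palindromic cAMP response element.
Hcrt: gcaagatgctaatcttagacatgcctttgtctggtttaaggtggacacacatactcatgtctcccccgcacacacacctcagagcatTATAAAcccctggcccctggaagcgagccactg
Pmch: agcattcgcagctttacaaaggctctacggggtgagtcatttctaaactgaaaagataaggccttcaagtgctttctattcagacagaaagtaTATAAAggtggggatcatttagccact
Pomc: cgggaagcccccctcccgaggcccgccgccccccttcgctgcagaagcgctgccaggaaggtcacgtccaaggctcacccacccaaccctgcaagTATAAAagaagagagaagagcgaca
Npvf: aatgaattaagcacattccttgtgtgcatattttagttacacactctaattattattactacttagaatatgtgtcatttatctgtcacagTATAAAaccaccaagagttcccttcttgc
Cartpt: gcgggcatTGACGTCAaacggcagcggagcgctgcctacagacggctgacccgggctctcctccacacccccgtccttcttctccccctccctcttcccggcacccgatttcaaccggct
Sst: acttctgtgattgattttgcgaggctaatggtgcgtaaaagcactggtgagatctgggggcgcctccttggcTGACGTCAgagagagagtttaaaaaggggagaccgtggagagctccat
Counted from the annotated start, TATAAA began at -33 in *Hcrt*, -27 in *Pmch*, -25 in *Pomc* and -29 in *Npvf*, and TGACGTCA began at -48 in *Sst* and -112 in *Cartpt*. Over windows from 250 bases before to 50 bases after the start, TATAAA on either strand was in 14.2% of all 27025 promoters and in 7.0% of the 11181 that belong to tested genes. Genes called at least 2-fold higher had it in 9.93% of 705 promoters on the hypothalamus side and 9.86% of 558 on the ventral striatum side. TGACGTCA was in 1.88% of all promoters, in 3.21% of those of tested genes, in 2.55% on the hypothalamus side and in 1.25% on the ventral striatum side. A match is a description of the letters only. Of 16 promoters of named peptide and dopamine receptor genes searched in these windows, only the 6 shown held either motif, and those of *Oxt*, *Avp*, *Trh*, *Gal*, *Npy*, *Adcyap1*, *Pdyn*, *Tac1*, *Drd1* and *Drd2* held neither. The table has no entry for *Agrp*, *Penk*, *Ppp1r1b* and *Adora2a*.

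Peptides of feeding and arousal were among the genes with the largest differences. *Hcrt*, the precursor of the orexins, which maintain wakefulness, had 46.2 CPM in its lowest hypothalamus library, a median of 61.0 CPM and a highest value of 81.2 CPM, while the ventral striatum had a median of 0 and a highest value of 0.512 CPM (log2 fold change 8.60, SE 0.73, adjusted p = 1.21e-219). *Pmch*, the precursor of melanin-concentrating hormone, which promotes feeding and sleep, ran from 76.2 to 123 CPM in the hypothalamus (median 110.2) and from 0 to 1.45 CPM in the ventral striatum (median 0.128; log2 fold change 8.49, SE 0.52, adjusted p = 5.33e-298). No library of either region overlapped the other for these genes. *Pmch* shares 58.1% of its exon bases with a gene on the opposite strand, *Parpbp*, and because the counting is not stated to use strand, reads there cannot be told apart. *Adcyap1*, which encodes the neuropeptide PACAP, was at 17.2 to 30.7 CPM in the hypothalamus and 0.253 to 0.62 CPM in the ventral striatum, a log2 difference of 5.71 (SE 0.42). *Pomc*, the precursor of the satiety peptide alpha-MSH, was at 4.02 to 8.26 CPM against 0 to 1.24 CPM (log2 3.40, SE 0.40). *Npvf*, the gene of the RFamide-related peptides, had 222 counts in the 8 hypothalamus libraries and 2 in the 8 ventral striatum libraries, a ratio of 100.5 with a 95% counting interval from 27.5 to 835, which covers counting error only. *Agrp*, the hunger peptide of the arcuate nucleus, was low in both regions, with a median of 1.24 CPM in the hypothalamus and 0.348 CPM in the ventral striatum, and its libraries overlapped (log2 1.58, SE 0.48, adjusted p = 0.00055).

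List counts are read beside the shares of all genes tested: 23.7% called higher in the hypothalamus and 22.2% in the ventral striatum. For no overlap between regions, the shares were 8.5% and 8.04%. Of 17 listed genes of feeding, arousal and clock peptides, 16 were tested, 11 were called higher in the hypothalamus and 1 in the ventral striatum, with a median log2 difference of 1.58 against 0.01 over all genes. Without WT 1 of the hypothalamus, 2 were called in the ventral striatum, the second being *Prok2*, prokineticin 2. The member called there in all 16 libraries was *Npy*, neuropeptide Y, which is made by hunger neurons of the arcuate nucleus and also by interneurons of the striatum. It ran from 12.7 to 37.1 CPM in the hypothalamus (median 21.4) and from 72.2 to 118 CPM in the ventral striatum (median 100.3; log2 fold change -2.20, SE 0.14, adjusted p = 2.5e-51), with no overlap. *Cartpt*, the precursor of the CART peptides, was higher in the hypothalamus at 30.4 to 49.5 CPM against 8.19 to 23.6 CPM (log2 1.54, SE 0.17). *Nts*, neurotensin, did not pass, with medians of 9.27 CPM in the hypothalamus and 12.3 CPM in the ventral striatum (log2 -0.17, SE 0.19, adjusted p = 0.493).

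Hormones that hypothalamic neurons release to the blood or to the pituitary gave the next group. *Oxt*, oxytocin, ran from 6.25 to 24.6 CPM in the hypothalamus (median 16) and from 0 to 0.538 CPM in the ventral striatum (log2 6.50, SE 0.75). *Avp*, vasopressin, ran from 3.89 to 20.4 CPM against 0 to 2.03 CPM (log2 4.68, SE 0.45), and *Trh*, thyrotropin-releasing hormone, from 15.4 to 34.5 CPM against 0.552 to 4.88 CPM (log2 3.30, SE 0.25). All hypothalamus libraries exceeded all ventral striatum libraries for these hormones. Of the 9 genes listed, 7 were tested, and 4 were called higher in the hypothalamus (the 3 above and *Ghrh*) with a list median of 3.30. *Crh* and *Sst*, releasing and inhibiting hormones that interneurons elsewhere in the brain also make, were called higher in the ventral striatum. *Sst*, somatostatin, was at 53.0 to 70.9 CPM there and at 28.6 to 41.5 CPM in the hypothalamus (log2 -0.80, SE 0.08). *Crh*, corticotropin-releasing hormone, was at 2.85 to 6.19 CPM in the ventral striatum against 0.23 to 1.91 CPM (log2 -2.14, SE 0.29). *Gnrh1* was below the filter on low counts. The folds of genes that were nearly absent from the ventral striatum rested on a few counts there: without het 6 of the ventral striatum the log2 value of *Hcrt* was 9.22, of *Oxt* 7.16 and of *Ghrh* 4.52 (3.88 with it). Without KO 8 of the ventral striatum that of *Oxt* was 7.19, without its WT 2 that of *Pmch* was 9.56, and without its het 4 that of *Avp* was 5.33.

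**Figure D1:**
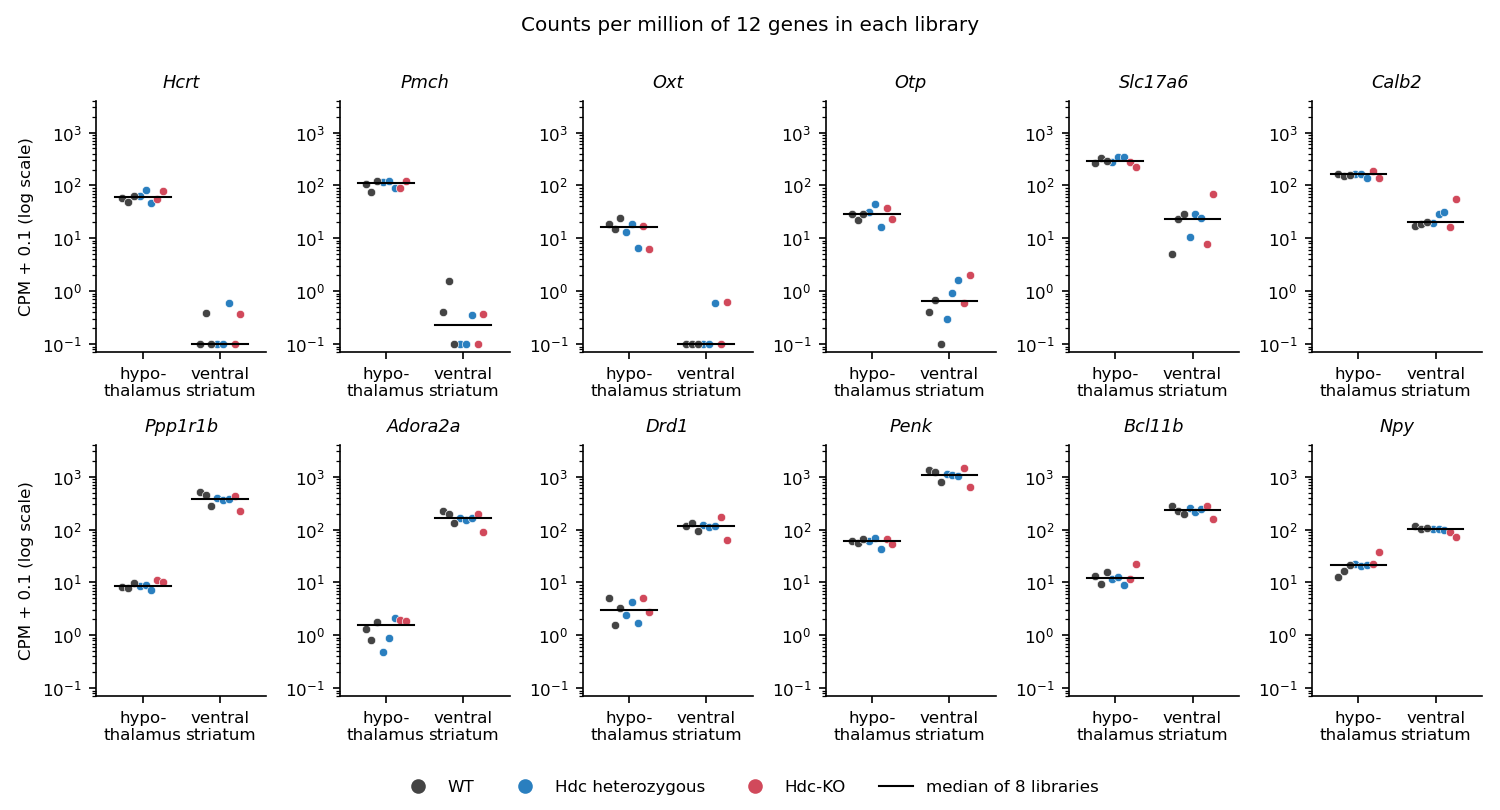
CPM plus 0.1 (log scale) of 12 genes in each of the 16 libraries, with 8 points per region coloured by genotype and a bar at the region median. *Hcrt*, *Pmch*, *Oxt*, *Otp*, *Slc17a6* and *Calb2* sit higher in every hypothalamus library, and *Ppp1r1b*, *Adora2a*, *Drd1*, *Penk*, *Bcl11b* and *Npy* sit higher in every ventral striatum library.

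Genes that process peptides showed smaller differences in 1 direction. Of 14 genes of prohormone processing and secretory granules, 11 were called higher in the hypothalamus and none in the ventral striatum, with a median log2 difference of 0.57. *Pcsk1*, the prohormone convertase that makes the first cuts, was at 27.3 to 40.6 CPM in the hypothalamus and 4.96 to 11.9 CPM in the ventral striatum (log2 1.91, SE 0.12). *Resp18*, a granule protein of endocrine cells, was at 132 to 187 CPM against 20.8 to 60.3 CPM (log2 2.14, SE 0.14), and *Pam*, which amidates the ends of peptides, was at 227 to 359 CPM against 141 to 172 CPM (log2 0.78, SE 0.08). *Cpe*, the carboxypeptidase that trims the cut ends, was at 811 to 1043 CPM against 779 to 929 CPM and did not pass (log2 0.13, SE 0.07, adjusted p = 0.0931). *Cpe* passed without het 5 of the hypothalamus (adjusted p = 0.0238) and without KO 7 of the ventral striatum (adjusted p = 0.0393).

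Transcription factors that pattern the hypothalamus had the largest median difference of the 35 lists. Of 28 listed, 25 were tested, 24 were called higher in the hypothalamus and none in the ventral striatum, and 22 did not overlap between regions. The list median was 4.40 as fitted and 3.72 with the 4 members that had no count in the ventral striatum set at their lower bound. *Otp*, needed for the neurons that make oxytocin, vasopressin and somatostatin, was at 16.4 to 43.7 CPM in the hypothalamus (median 28.6) and 0 to 1.89 CPM in the ventral striatum (median 0.543; log2 5.28, SE 0.35, adjusted p = 5.33e-78). *Sim1*, which acts with *Otp* in the paraventricular nucleus and in feeding, was at 5.52 to 15.9 CPM against 0 to 1.35 CPM (log2 4.70, SE 0.46, and 5.29 without KO 8 of the ventral striatum). *Six6*, a factor of the ventral hypothalamus and the pituitary, had 139 counts in the hypothalamus and none in the ventral striatum, at least 41.9-fold higher with the ventral striatum set at 3 counts over its 8 libraries. *Tbx3*, a factor of the arcuate nucleus, was at 9.92 to 16.3 CPM against 1.42 to 6.09 CPM (log2 1.93, SE 0.20). *Nkx2-1*, which the ventral forebrain also uses for striatal interneurons, overlapped between regions at 9.38 to 15.7 CPM against 6.65 to 12.7 CPM (log2 0.55, SE 0.15, adjusted p = 0.00105). The member that did not pass was *Vax1*, with medians of 0.869 and 1.34 CPM (log2 -0.36, SE 0.42, adjusted p = 0.496).

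The ventral striatum was marked by the signalling genes of spiny projection neurons. *Ppp1r1b*, which encodes DARPP-32, the phosphatase regulator that relays dopamine signals, had 226 to 506 CPM in the ventral striatum (median 386) and 6.96 to 10.8 CPM in the hypothalamus (median 8.52; log2 fold change -5.43, SE 0.15, adjusted p = 8.39e-237). *Gng7*, a G protein subunit that couples their receptors to adenylyl cyclase, was at 364 to 784 CPM in the ventral striatum against 26.9 to 40.5 CPM in the hypothalamus (log2 -4.20, SE 0.13). Every ventral striatum library exceeded every hypothalamus library for both genes. *Adcy5*, the main striatal adenylyl cyclase, was higher by less, at 505 to 869 CPM against 147 to 176 CPM (log2 -2.19, SE 0.11), as was *Pde10a*, the phosphodiesterase of spiny neurons, at 440.1 to 1259 CPM against 78.5 to 97.3 CPM (log2 -3.23, SE 0.15). Of 20 listed genes of striatal cAMP and G protein signalling, 19 were tested and 17 were called higher in the ventral striatum, each by at least 2-fold and with no overlap. None was called higher in the hypothalamus with TMM scaling and 1 with library totals alone, and the list median was -1.86. The members that did not pass were *Cnr1*, the cannabinoid receptor, with medians of 119.5 CPM in the hypothalamus and 109.9 CPM in the ventral striatum (log2 0.13, SE 0.09), and *Rgs4*, a brake on G protein signalling, with 142 and 186 CPM (log2 -0.25, SE 0.12, adjusted p = 0.0732). *Rgs4* passed when KO 8 (adjusted p = 0.00875), WT 2 (0.0406) or het 6 (0.0289) of the hypothalamus, or KO 8 (0.0304) or WT 3 (0.0131) of the ventral striatum, was left out.

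Most marker genes of both kinds of spiny projection neuron were higher in the ventral striatum. Among D2-type (indirect pathway) markers, *Adora2a*, an adenosine receptor, was at 91.5 to 221 CPM in the ventral striatum and 0.39 to 2.05 CPM in the hypothalamus (log2 -6.96, SE 0.25, adjusted p = 2.89e-233). *Penk*, the enkephalin precursor, was at 638 to 1485 CPM against 43.4 to 70.2 CPM (log2 -4.20, SE 0.14), with 10.8% of its exon bases shared with *A830012C17Rik* on the opposite strand. *Drd2*, which dopamine neurons of other regions also express, was at 119 to 249.6 CPM against 24.8 to 48.1 CPM (log2 -2.46, SE 0.14). Among D1-type (direct pathway) markers, *Drd1* was at 63.8 to 171 CPM (median 117) against 1.45 to 5.06 CPM (median 2.96; log2 -5.20, SE 0.20, adjusted p = 8.06e-134). *Pdyn*, the dynorphin precursor, and *Tac1*, the substance P precursor, are also made by hypothalamic neurons and differed by less, with log2 values of -2.14 (SE 0.16) and -1.41 (SE 0.17). The regions still did not overlap, at 57.9 to 175 CPM against 16.2 to 38.0 CPM for *Pdyn* and 22.9 to 65.4 CPM against 8.78 to 17.3 CPM for *Tac1*. Of 6 indirect pathway markers tested, 5 were called higher in the ventral striatum (median log2 -3.33), and *Ptprm* was called higher in the hypothalamus (log2 0.50, SE 0.09). Of 9 direct pathway markers, 7 were called higher in the ventral striatum (median -1.41) and 1, *Sfxn1*, in the hypothalamus.

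The gene with the largest fitted fold on the ventral striatum side was *Ankrd63*, an ankyrin repeat gene, at 71.1 to 128 CPM against 0.181 to 1.79 CPM (log2 -7.55, SE 0.33, adjusted p = 9.29e-293). It was followed by *Adora2a*, by *Cd4*, best known as a receptor of helper T cells, at 14.3 to 34.8 CPM against 0 to 0.447 CPM (log2 -6.48, SE 0.47), and by *Crym*, a thyroid hormone binding protein, at 60.6 to 129 CPM against 0.543 to 2.90 CPM (log2 -6.44, SE 0.25). *Wfs1*, an endoplasmic reticulum protein, was among the genes with the smallest p-values at 621 to 1001 CPM against 89.2 to 115 CPM (log2 -3.05, SE 0.09). The value of KO 8 was the lowest of the ventral striatum libraries for *Ppp1r1b* (226 CPM), *Penk* (638 CPM), *Drd1* (63.8 CPM) and *Wfs1* (621 CPM). WT 3 was low as well for the striatal cAMP and G protein list. That list summed to 5185 CPM in KO 8 and 5800 CPM in WT 3, against 7926 to 9803 CPM in the other ventral striatum libraries.

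Transcription factors of the telencephalon and striatum were tested as 25 of 26 listed genes, of which 17 were called higher in the ventral striatum and 4 in the hypothalamus (7 with library totals alone), with a median of -1.18. *Bcl11b*, or CTIP2, required for spiny neurons, was at 155 to 284 CPM in the ventral striatum against 9.002 to 22.3 CPM in the hypothalamus (log2 -4.17, SE 0.15). *Meis2*, a homeobox factor, was at 224 to 470.1 CPM against 24.6 to 40.9 CPM (log2 -3.44, SE 0.13). *Rarb*, the retinoic acid receptor beta, was at 28.8 to 79.3 CPM against 3.90 to 6.24 CPM (log2 -3.36, SE 0.18). None of these overlapped between regions. *Rarb* shares 52.9% of its exon bases with *Top2b* on the opposite strand, so that reads in those bases cannot be told apart. The members called higher in the hypothalamus were *Sp8* (log2 3.27, SE 0.76, and 3.89 without het 6 of the ventral striatum), *Neurod2*, *Dlx1* and *Ikzf2*. *Dlx1*, which GABA neurons of the hypothalamus also use, was at 15.96 to 30.5 CPM against 7.75 to 18.2 CPM (log2 0.97, SE 0.15). *Neurod2*, a factor of cortical excitatory neurons, was at 23.2 CPM in KO 8 of the hypothalamus and at most 1.84 CPM in the other 7. The call of *Neurod2* (log2 2.15, adjusted p = 0.00872) was lost without both KO 8 libraries (log2 1.04, adjusted p = 0.0598), with a log2 value of 1.26 without that library alone. *Isl1*, used by direct pathway neurons and by arcuate neurons alike, had medians of 11.04 and 12.5 CPM (log2 -0.09, SE 0.17, adjusted p = 0.691).

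Marker genes of striatal interneurons were called in both directions. The cholinergic genes *Chat*, which makes acetylcholine, and *Slc5a7*, which takes up choline, were higher in the ventral striatum at 10.2 to 19.1 CPM against 0 to 1.91 CPM (log2 -3.98, SE 0.29) and 23.6 to 40.6 CPM against 2.17 to 5.53 CPM (log2 -3.15, SE 0.18). *Lhx8*, a factor of cholinergic neurons, was at 18.9 to 45.2 CPM against 0.223 to 5.72 CPM (log2 -4.63, SE 0.40). *Lhx6*, a factor of interneurons that come from the medial ganglionic eminence, was at 30.7 to 49.9 CPM against 2.25 to 10.9 CPM (log2 -3.04, SE 0.21). *Pvalb* and *Calb2*, the calcium-binding proteins parvalbumin and calretinin, mark interneurons in the striatum but many projection neurons elsewhere, and both were higher in the hypothalamus. *Calb2* was at 139 to 184 CPM there and at 16.5 to 55.2 CPM in the ventral striatum (log2 2.66, SE 0.16), and *Pvalb* at 21.4 to 67.3 CPM against 6.34 to 15.9 CPM (log2 1.58, SE 0.21). Of the 13 genes of this list, 7 were called higher in the ventral striatum and 5 in the hypothalamus (3 without KO 7 of the hypothalamus).

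**Figure D2:**
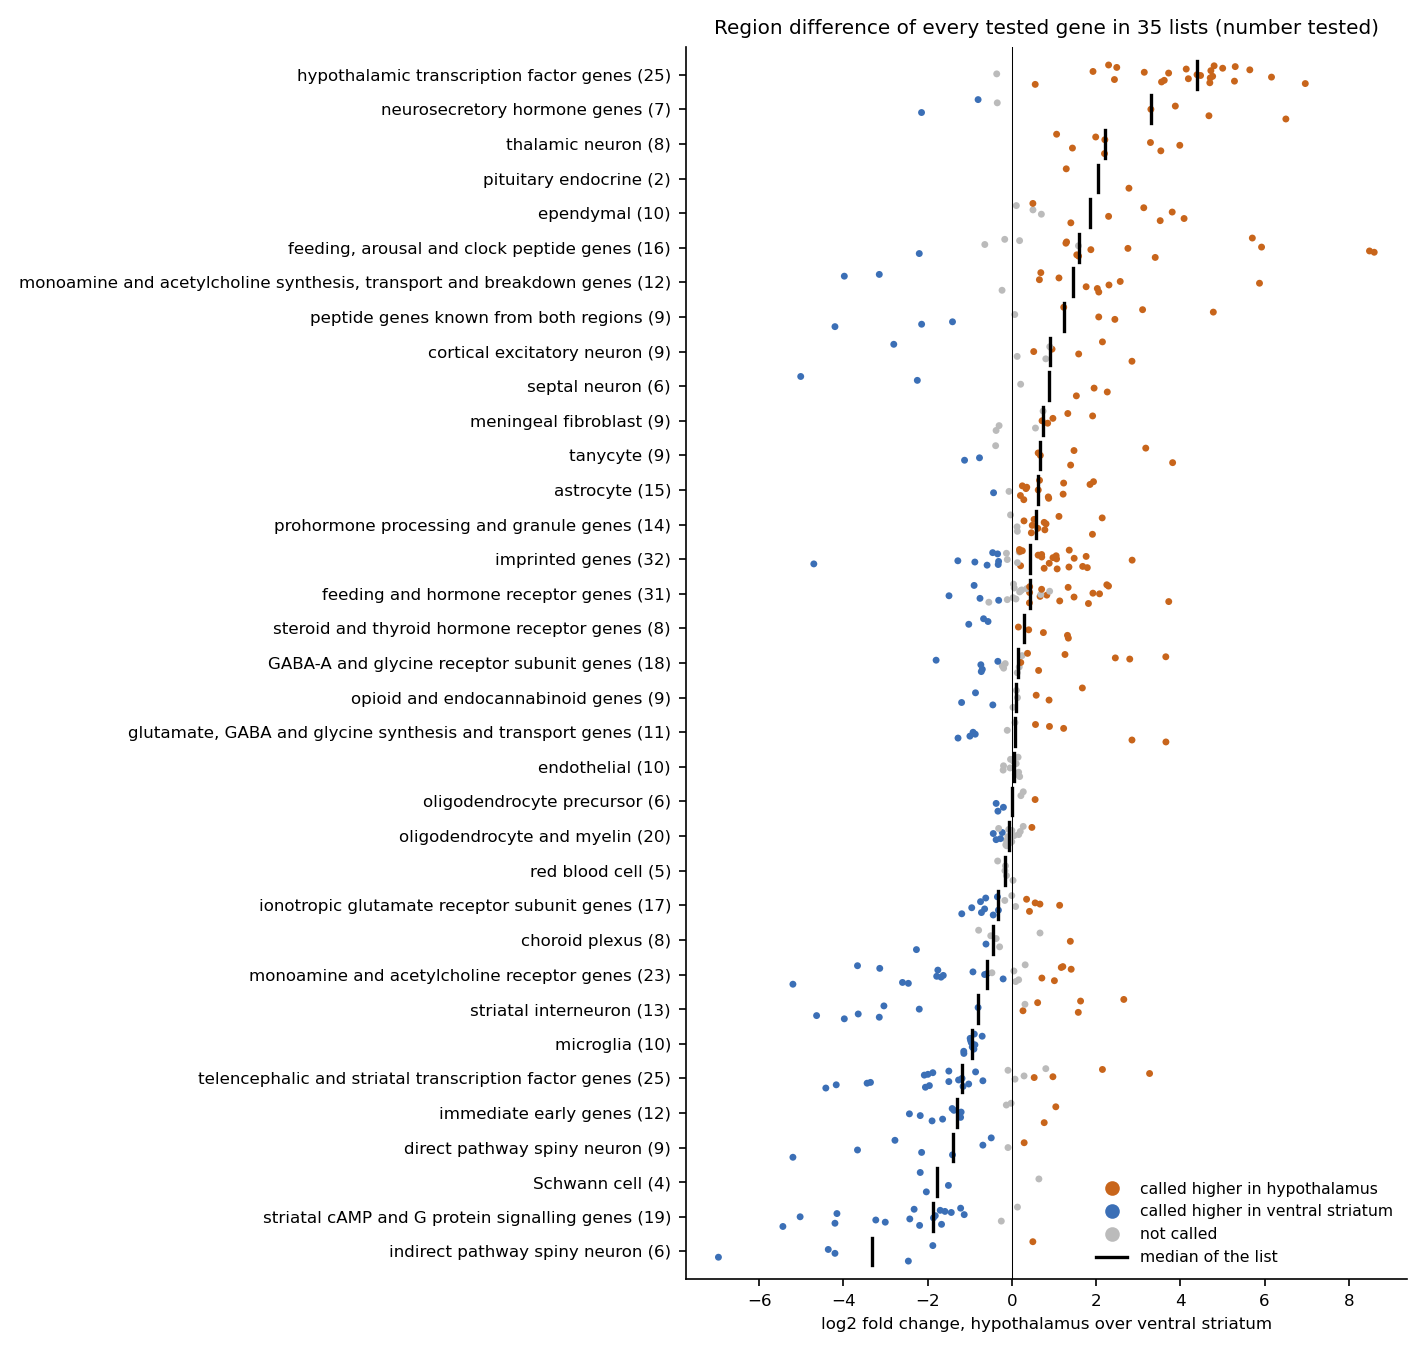
Log2 fold change of the hypothalamus over the ventral striatum for every tested gene of 35 lists, with the number tested in brackets, colour for the call and a black bar at the list median. The highest median is that of the hypothalamic transcription factors (4.40) and the lowest that of the indirect pathway spiny neuron markers (-3.33), while the endothelial list lies at 0.06 with no gene called.

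Genes of fast transmission were called in both directions. *Slc17a6*, the vesicular glutamate transporter VGLUT2 of subcortical neurons, was at 228 to 349.9 CPM in the hypothalamus (median 284) and 4.96 to 68.1 CPM in the ventral striatum (median 23.3; log2 3.66, SE 0.31, adjusted p = 6.74e-25). *Slc32a1*, the vesicular GABA transporter, was at 152 to 178 CPM in the ventral striatum and 70.9 to 95.4 CPM in the hypothalamus (log2 -0.996, SE 0.07), and shares 24.9% of its exon bases with *Gm14205* on the opposite strand. *Gad1* and *Gad2*, the enzymes that make GABA, were also higher in the ventral striatum, at 292 to 372 CPM against 166 to 218 CPM (log2 -0.87, SE 0.07) and 709.5 to 1251 CPM against 432 to 547 CPM (log2 -0.92, SE 0.08). None of the 4 genes overlapped between regions. *Slc17a7*, or VGLUT1, the transporter of cortical neurons, was at 205 CPM in KO 8 of the hypothalamus, at 10.8 to 47.1 CPM in the other 7 hypothalamus libraries and at 2.28 to 8.96 CPM in the ventral striatum. Of 11 genes tested for the synthesis and transport of glutamate, GABA and glycine, 5 were called higher in the hypothalamus, among them the GABA transporter gene *Slc6a11* (log2 1.23), and 4 in the ventral striatum, with a median of 0.07.

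Receptor subunits for GABA and glycine included some of the largest receptor differences. *Glra1*, the glycine receptor subunit of brainstem and spinal cord, was at 43.3 to 57.9 CPM in the hypothalamus and 0.62 to 8.44 CPM in the ventral striatum (log2 3.65, SE 0.20). *Gabre* and *Gabrq*, the epsilon and theta subunits of the GABA-A receptor, both lie on the X chromosome. *Gabre* was at 16.2 to 35.01 CPM against 1.55 to 4.96 CPM (log2 2.80, SE 0.20), and *Gabrq* at 71.2 to 120.2 CPM against 9.56 to 25.6 CPM (log2 2.46, SE 0.12). *Gabrd*, the delta subunit of receptors outside the synapse, went the other way, at 13.5 to 27.3 CPM in the ventral striatum and 2.95 to 7.98 CPM in the hypothalamus (log2 -1.80, SE 0.18). Of the 18 subunits, 7 were called higher in the hypothalamus and 5 in the ventral striatum, against 23.7% and 22.2% of all genes tested. Among 17 subunits of ionotropic glutamate receptors, 9 were called higher in the ventral striatum and 5 in the hypothalamus, a split that was 7 and 7 with library totals alone. *Gria2*, the AMPA receptor subunit that blocks calcium entry, was at 384 to 621 CPM in the ventral striatum and 172 to 279 CPM in the hypothalamus (log2 -1.19, SE 0.10). *Grin2d*, an NMDA receptor subunit of the diencephalon and brainstem, was at 13.01 to 46.6 CPM in the ventral striatum against 50.5 to 58.6 CPM in the hypothalamus (log2 1.13, SE 0.16).

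Most tested genes of monoamine synthesis, transport and breakdown were higher in the hypothalamus. *Slc18a2*, the vesicular monoamine transporter, was at 35.7 to 78.2 CPM in the hypothalamus and 6.20 to 11.2 CPM in the ventral striatum (log2 2.57, SE 0.15). *Th*, tyrosine hydroxylase, which makes the precursor of dopamine, was at 16.2 to 59.2 CPM against 4.69 to 13.6 CPM (log2 2.03, SE 0.24). *Ddc*, the decarboxylase that completes dopamine and serotonin, was at 15.6 to 36.4 CPM against 4.35 to 10.2 CPM (log2 1.76, SE 0.19). *Maob*, a breakdown enzyme, was at 38.0 to 48.3 CPM against 16.2 to 23.2 CPM (log2 1.12, SE 0.09). *Slc6a3*, the dopamine transporter, is best known from midbrain dopamine neurons. The hypothalamus values of *Slc6a3* ran from 2.75 CPM in het 5 and 8.78 CPM in WT 3 to 143 CPM in het 6, against 0 to 2.61 CPM in the ventral striatum (log2 5.88, SE 0.56). The part of midbrain tissue in the hypothalamus values of *Slc6a3*, *Th*, *Ddc* and *Slc18a2* was not tested. Of the 12 genes of synthesis, transport and breakdown that were tested, 9 were called higher in the hypothalamus, and the 2 called higher in the ventral striatum were the cholinergic genes above.

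Receptors for monoamines and acetylcholine were mostly on the ventral striatum side, with 13 of 23 called higher there (12 with library totals alone), 5 higher in the hypothalamus and a median of -0.59. *Chrm1* and *Chrm4*, muscarinic acetylcholine receptors, were at 102 to 197 CPM against 12.3 to 48.5 CPM (log2 -3.14, SE 0.20) and 22.6 to 40.3 CPM against 1.81 to 5.58 CPM (log2 -3.66, SE 0.19). *Drd3*, a dopamine receptor of the nucleus accumbens, was at 4.61 to 10.4 CPM against 0.409 to 2.53 CPM (log2 -2.60, SE 0.27). *Htr1b*, a serotonin receptor on nerve terminals, was at 24.8 to 52.2 CPM against 8.59 to 16.5 CPM (log2 -1.68, SE 0.14). Those called higher in the hypothalamus included *Htr7*, a serotonin receptor, at 9.15 to 16.2 CPM against 2.17 to 8.35 CPM (log2 1.41, SE 0.20). *Hrh1*, the histamine H1 receptor, was at 6.96 to 15.3 CPM against 3.72 to 7.56 CPM (log2 1.01, SE 0.20, with overlap). Of 9 opioid and endocannabinoid genes, 3 were called in each direction with TMM scaling, and 6 on the hypothalamus and 2 on the ventral striatum side with library totals alone. Of all genes tested, 23.7% were called on the hypothalamus side and 22.2% on the ventral striatum side with TMM scaling.

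Receptors for feeding signals and hormones included genes called in both directions. *Ghsr*, the receptor of the hunger hormone ghrelin, was at 4.39 to 10.7 CPM in the hypothalamus and 0 to 0.869 CPM in the ventral striatum (log2 3.72, SE 0.42). *Lepr*, the leptin receptor, was at 2.88 to 4.47 CPM against 0.203 to 1.68 CPM (log2 1.82, SE 0.29). *Prlr*, the prolactin receptor, was at 27.9 to 47.0 CPM against 4.65 to 15.6 CPM (log2 1.92, SE 0.19). The receptor of melanin-concentrating hormone, *Mchr1*, was on the opposite side from its ligand, at 6.07 to 18.0 CPM in the ventral striatum and 2.36 to 6.30 CPM in the hypothalamus (log2 -1.49, SE 0.23, adjusted p = 7.38e-10). *Mc4r*, the melanocortin receptor of appetite, was at medians of 1.81 CPM in the hypothalamus and 2.28 CPM in the ventral striatum and did not pass (log2 -0.55, SE 0.27, adjusted p = 0.0792). *Mc4r* passed without het 5 of the hypothalamus (log2 -0.72, adjusted p = 0.0196) and without its WT 3 (log2 -0.64, adjusted p = 0.0483). Of 33 listed, 31 were tested, 15 were called higher in the hypothalamus and 4 in the ventral striatum, with a median of 0.42. Among 8 steroid and thyroid hormone receptors, 5 were called higher in the hypothalamus (3 without both KO 8 libraries) and 3 in the ventral striatum. *Esr1*, the oestrogen receptor alpha, was at 5.79 to 11.1 CPM in the hypothalamus and 1.68 to 6.46 CPM in the ventral striatum (log2 1.34, SE 0.21). *Nr3c2*, the mineralocorticoid receptor, was at 23.6 to 34.8 CPM in the hypothalamus against 46.3 to 69.7 CPM (log2 -1.02, SE 0.09).

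Imprinted genes are expressed from 1 parental copy in at least some tissues, and several are known for feeding and growth. The list had 41 genes, and 32 were tested. Parental copies were not told apart here. The hypothalamus was higher for 20 and the ventral striatum for 8 (5 with library totals alone), and the list median was 0.44. *Peg3*, a zinc finger gene, was at 1491 to 2021 CPM against 586 to 1047 CPM (log2 1.07, SE 0.09). *Ndn* and *Magel2*, genes of the Prader-Willi region, were at 288 to 442 CPM against 99.8 to 178 CPM (log2 1.35, SE 0.10) and 14.5 to 34.9 CPM against 4.48 to 13.8 CPM (log2 1.68, SE 0.19). *Asb4*, a gene of arcuate neurons, was at 22.5 to 38.5 CPM against 2.24 to 5.52 CPM (log2 2.85, SE 0.18). These 4 genes did not overlap between regions. On the other side, *Ppp1r9a*, or neurabin, was at 344 to 569.8 CPM in the ventral striatum and 162 to 231 CPM in the hypothalamus (log2 -1.28, SE 0.09). *Dio3*, the enzyme that inactivates thyroid hormone, had 78 counts in the ventral striatum and 3 in the hypothalamus, a ratio of 28.7 with a counting interval from 9.47 to 142.

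Among glia, the microglial list moved as a whole. All 10 genes were called higher in the ventral striatum, all 10 without overlap between the 8 and 8 libraries, with a median log2 difference of -0.95, and all 10 were also called with library totals alone. *Cx3cr1*, the fractalkine receptor, was at 53.7 to 67.8 CPM in the ventral striatum (median 62.6) and 21.8 to 33.0 CPM in the hypothalamus (median 29.3; log2 -1.14, SE 0.09, adjusted p = 1.52e-37). *P2ry12*, the purinergic receptor of resting microglia, was at 31.5 to 37.9 CPM against 13.4 to 18.4 CPM (log2 -1.14, SE 0.09). *Csf1r*, the growth factor receptor microglia depend on, had a log2 difference of -0.94 (SE 0.09) and shares 17.9% of its exon bases with *Hmgxb3* on the opposite strand. The summed level of the 10 genes was 148 to 181 CPM in the hypothalamus libraries and 275 to 351 CPM in the ventral striatum libraries.

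Astrocyte genes were on the other side, with 13 of 15 called higher in the hypothalamus, 1 higher in the ventral striatum and a median of 0.63. *Itih3*, a matrix-binding protein, was at 108 to 173 CPM in the hypothalamus and 21.4 to 64.9 CPM in the ventral striatum (log2 1.94, SE 0.16). *Agt*, angiotensinogen, was at 71.9 to 133 CPM against 9.60 to 62.7 CPM (log2 1.85, SE 0.21). *Slc6a11*, the GABA transporter GAT-3, was at 860.3 to 1022 CPM against 242 to 682 CPM (log2 1.23, SE 0.14). *Gjb6*, connexin 30, was at 57.7 to 81.9 CPM against 21.4 to 38.6 CPM (log2 1.22, SE 0.10). The exceptions were the glutamate transporters: *Slc1a2*, or GLT-1, was higher in the ventral striatum at 4079 to 5667 CPM against 3075 to 4325 CPM (log2 -0.43, SE 0.08), and *Slc1a3*, or GLAST, did not pass at 300.5 to 346 CPM against 266 to 372 CPM (log2 -0.07, SE 0.07, adjusted p = 0.449). The summed level of the list overlapped between regions, at 7223 to 8153 CPM in the hypothalamus and 6997 to 8061 CPM in the ventral striatum.

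**Figure D3:**
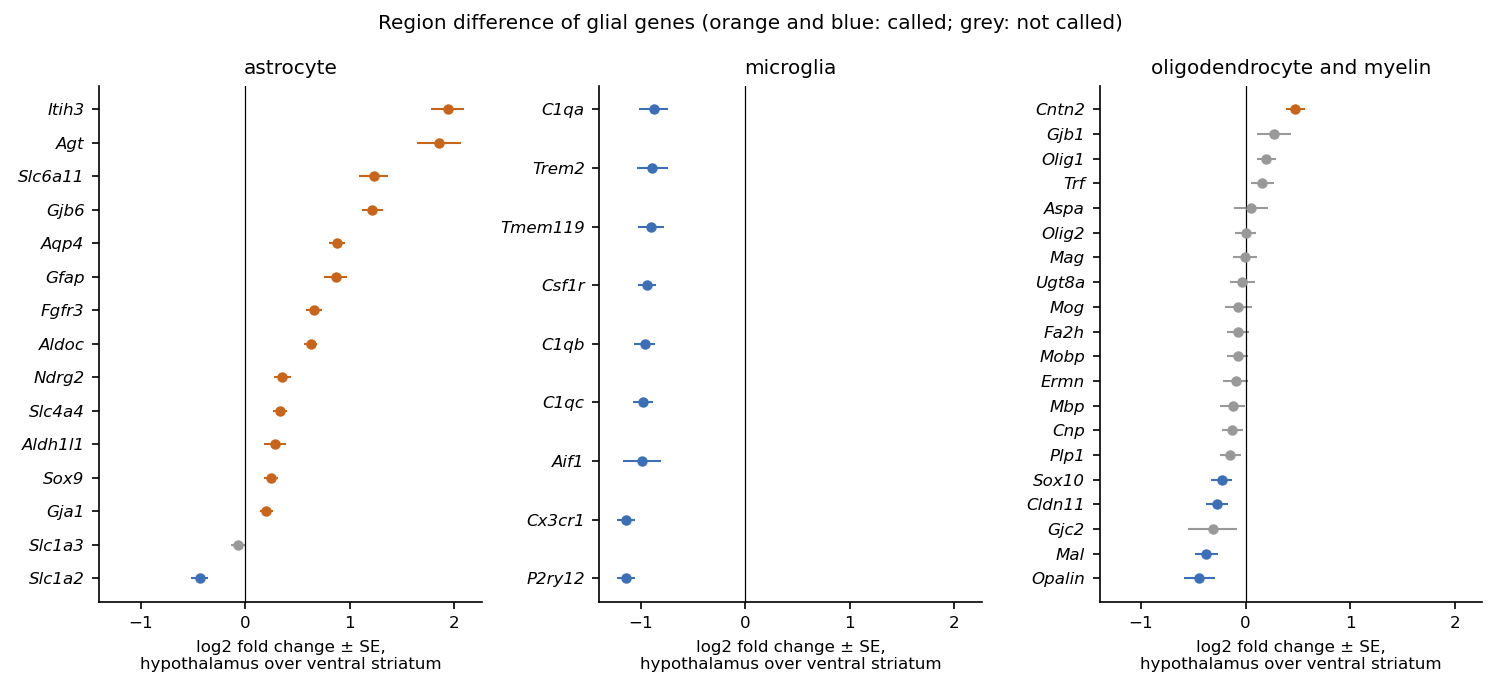
Log2 fold change (points) with its standard error (bars) of the hypothalamus over the ventral striatum for the genes of the astrocyte, microglia (9 of 10) and oligodendrocyte lists. All 9 microglial genes drawn lie below 0, 13 of 15 astrocyte genes are called above 0, and most of the 20 oligodendrocyte genes lie near 0.

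Of 20 oligodendrocyte and myelin genes, 15 did not pass, 4 were called higher in the ventral striatum and 1 in the hypothalamus, with a median of -0.07. The shares of all genes tested were 22.2% and 23.7%. *Mbp*, myelin basic protein, was at 1280.0 to 2268 CPM in the hypothalamus and 1266 to 2079 CPM in the ventral striatum (log2 -0.12, SE 0.12, adjusted p = 0.421). The direction of the list was not stable: with library totals alone 4 genes were called higher in the hypothalamus and none in the ventral striatum, and without het 6 of the hypothalamus, whose summed level was the highest of its region, 7 were called higher in the ventral striatum. Leaving out KO 8 or het 5 of the hypothalamus, or WT 3 of the ventral striatum, left 2 genes on each side. Leaving out KO 7 of the ventral striatum left 2 on its side, and leaving out its KO 8 or het 6 gave 2 on the hypothalamus side. *Cntn2*, a contactin of the juxtaparanode, was the member called higher in the hypothalamus (log2 0.48, SE 0.09), and *Mal*, a myelin lipid-raft protein, was higher in the ventral striatum (log2 -0.37, SE 0.11). Of the 10 endothelial genes, none was called with TMM scaling by the edgeR likelihood ratio test, its quasi-likelihood test or DESeq2, although 2, 2 and 1 were at an unadjusted p under 0.05 (list median 0.06). With library totals alone 6 were called higher in the hypothalamus, and 1 was called there without WT 1 of the hypothalamus, and in the ventral striatum without KO 8 or het 4 of the hypothalamus. *Cldn5*, claudin-5 of the blood-brain barrier, was at 2.23 to 5.34 CPM in the hypothalamus and 2.24 to 4.58 CPM in the ventral striatum.

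Ependymal cells line the ventricles, and tanycytes line the floor of the third ventricle. Ependymal genes were called higher in the hypothalamus for 7 of 10 and in the ventral striatum for none, with a median of 1.85, as in *Fam183b*, a gene of ciliated cells, at 7.98 to 20.5 CPM against 0.929 to 2.69 CPM (log2 3.13, SE 0.26). Tanycyte genes were called in both directions, 6 of 9 higher in the hypothalamus and 2 in the ventral striatum. *Gpr50*, an orphan relative of the melatonin receptors, was at 22.3 to 44.1 CPM in the hypothalamus and 0.56 to 4.58 CPM in the ventral striatum (log2 3.82, SE 0.26). *Scn7a*, a sodium-sensing channel, was at 11.3 to 27.1 CPM against 0.869 to 3.77 CPM (log2 3.18, SE 0.22). *Rax*, a defining tanycyte factor, was below the filter on low counts.

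Immediate early genes, which neurons switch on within minutes of activity, were called higher in the ventral striatum for 8 of 12 genes and in the hypothalamus for 2, with a median of -1.30. *Fosb* was at 8.55 to 17.7 CPM in the ventral striatum and 1.44 to 8.46 CPM in the hypothalamus (log2 -1.89, SE 0.21), and *Egr1* at 152 to 428 CPM against 53.0 to 295 CPM with overlap (log2 -1.22, SE 0.22). *Fos* was called the other way, at 2.76 to 24.0 CPM in the hypothalamus and 1.61 to 9.80 CPM in the ventral striatum (log2 0.77, SE 0.25, adjusted p = 0.00674). The call of *Fos* was lost without a genotype term (adjusted p = 0.0817) and without the 4 libraries that carried markers of neighbouring tissue (KO 8 of both regions and het 5 and het 6 of the ventral striatum; adjusted p = 0.119). The other gene called higher in the hypothalamus was *Ier2*, at medians of 1.21 and 0.358 CPM (log2 1.04, SE 0.48, adjusted p = 0.0442). *Ier2* did not pass the quasi-likelihood test (adjusted p = 0.0983) or DESeq2 (adjusted p = 0.0926), nor when KO 7, WT 2, WT 3, het 4 or het 6 of the hypothalamus or KO 7, KO 8, WT 1, WT 2 or het 4 of the ventral striatum was left out (adjusted p from 0.0724 to 0.119).

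Genotype was examined by asking whether the difference between regions changed with it. With 1 mean fitted per region and genotype, a region difference was called for 4289 genes in WT (29.3%), 4015 in het (27.5%) and 2178 in KO (14.9%), which had 2 libraries per region against 3. The region difference itself changed between KO and WT for 7 genes (0.0479%) and between het and WT for 1 gene (0.00684%), *Hdc*, which is among the 7.

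*Hdc* was at 16.2, 20.1 and 17.9 CPM in WT 1, 2 and 3 of the hypothalamus, at 15.4, 23.0 and 15.96 CPM in het 4, 5 and 6, and at 12.4 and 14.7 CPM in KO 7 and 8. In the ventral striatum it was at 0.31, 1.74 and 0 CPM in WT 1, 2 and 3, which are 1, 6 and 0 counts, at 5.70, 5.601 and 5.89 CPM in the het libraries and at 12.4 and 13.7 CPM in the KO libraries. The groups of the ventral striatum did not overlap and stood in the order of the number of knockout alleles, while in the hypothalamus both KO libraries lay below every WT and het library and the WT and het libraries overlapped. The log2 difference between regions was thus 4.68 (SE 0.57) in WT, 1.66 (SE 0.24) in het and 0.06 (SE 0.26) in KO. Its change was -4.62 from WT to KO (SE 0.62, adjusted p = 1.38e-17) and -3.02 from WT to het (SE 0.62, adjusted p = 2.65e-05). These sizes rested on few WT counts: without WT 2 of the ventral striatum they were -6.65 and -5.05, and without its WT 3 they were -4.02 and -2.42. The change from WT to het did not pass the quasi-likelihood test (adjusted p = 0.214).

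None of the other 6 genes whose region difference changed was called when KO 8 of either region was left out. By the quasi-likelihood test only *Hdc* was called, and by DESeq2 *Hdc*, *Igfbp4* and *Npy*. *Igfbp4*, an insulin-like growth factor binding protein, was at 6.45 and 12.9 CPM in KO 7 and 8 of the hypothalamus against 4.73 to 6.51 CPM in WT, and at 18.0 and 14.8 CPM in the ventral striatum against 27.9 to 43.7 CPM in WT. The region difference of *Igfbp4* thus moved by 1.87 on the log2 scale (SE 0.37, adjusted p = 0.00388). *Npy* was at 22.6 and 37.1 CPM in the KO hypothalamus against 12.7 to 21.6 CPM in WT, and at 91.5 and 72.2 CPM in the KO ventral striatum against 104 to 118 CPM in WT, a change of 1.23 (SE 0.26, adjusted p = 0.00511). *Egr3*, an immediate early transcription factor, was at 2.302 CPM in KO 7 and 14.96 CPM in KO 8 of the hypothalamus, against 1.08 to 1.23 CPM in WT (change 3.14, SE 0.65, adjusted p = 0.00438). *Kcnh3*, a forebrain potassium channel, was at 0.921 CPM in KO 7 and 11.6 CPM in KO 8 there, against 0.362 to 1.23 CPM in WT (change 3.29, SE 0.70, adjusted p = 0.00438). *Cbln2*, a synapse-organizing cerebellin, was at 36.6 and 29.2 CPM in the KO hypothalamus against 42.3 to 49.4 CPM in WT, and at 4.82 and 9.15 CPM in the KO ventral striatum against 1.55 to 4.35 CPM in WT (change -1.86, SE 0.40, adjusted p = 0.00438). Without KO 8 of the hypothalamus the genes called were *Hdc* alone, and without KO 8 of the ventral striatum *Hdc* and *Necab1*. The count was 57 without KO 7 of the hypothalamus, 108 without KO 7 of the ventral striatum and 18 without WT 3 of the ventral striatum. Calls were also lost in other cases, that of *Cbln2* without WT 1 of the ventral striatum (adjusted p = 0.097), of *Npy* without WT 1 of the hypothalamus (adjusted p = 0.108) and of *Kcnh3* without WT 2 of the hypothalamus (adjusted p = 0.0788).

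**Figure D4:**
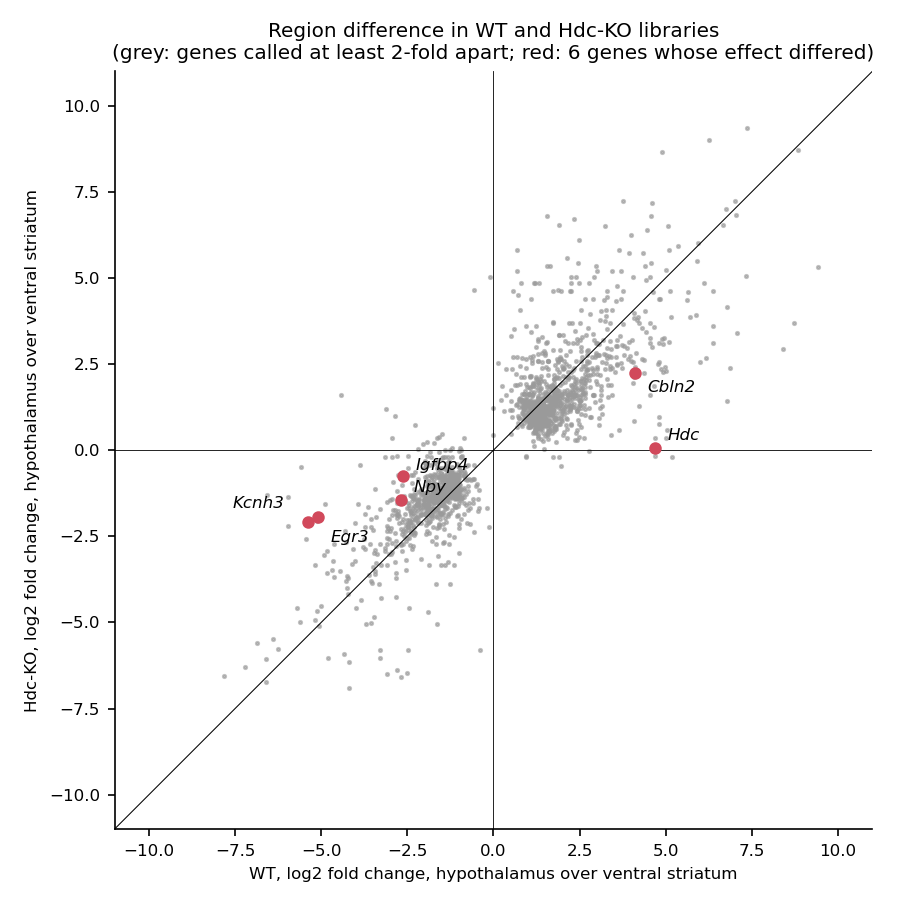
Log2 fold change of the hypothalamus over the ventral striatum in WT libraries (horizontal) and in KO libraries (vertical) for 1787 of the 1792 genes called at least 2-fold apart (grey), with the line of equality and 6 genes whose region difference changed (red). *Hdc* lies at 4.68 in WT and 0.06 in KO.

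Levels also varied within a region, along with markers of tissue beside it. All 8 thalamic markers were called higher in the hypothalamus, with a median of 2.2, and their summed level was 416 to 1068 CPM there and 88.6 to 190.4 CPM in the ventral striatum. *Tcf7l2*, a factor of thalamic and habenular neurons, was at 214 to 441 CPM against 33.8 to 135 CPM (log2 2.2, SE 0.20). *Prkcd*, a protein kinase of thalamic relay neurons, was at 33.0 to 186 CPM against 4.05 to 13.9 CPM (log2 3.54, SE 0.27). *Shox2*, a factor of thalamic and midbrain neurons, was at 12.7 to 48.7 CPM against 0 to 0.869 CPM (log2 6.92, SE 0.62, and 7.58 without WT 2 of the ventral striatum). The part of thalamic tissue in the hypothalamic values of *Slc17a6*, *Calb2*, *Pvalb* and *Cbln1* was not tested. *Cbln1*, cerebellin 1, was at 62.7 to 87.9 CPM in the hypothalamus and 1.01 to 9.15 CPM in the ventral striatum (log2 4.78, SE 0.22).

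The cortical excitatory list summed to 644 CPM in KO 8 of the hypothalamus, to 243 to 362 CPM in the other 7 hypothalamus libraries and to 255 to 300.4 CPM in the ventral striatum. Of its 9 tested genes, 5 were called higher in the hypothalamus. That count was 3 without both KO 8 libraries. It was 6 without the 4 libraries with neighbouring tissue markers, which include both KO 8 libraries. *Nrgn*, neurogranin, a calmodulin-binding protein of forebrain spines, was at 237 CPM in that library and at 33.4 to 49.8 CPM in the others of the hypothalamus, against 113 to 210.4 CPM in the ventral striatum (log2 -1.45, SE 0.28, and 0.23 in KO libraries alone). Schwann cell genes summed to 192 CPM in KO 8 of the ventral striatum and to 5.07 to 11.9 CPM in the other 7. *Pmp22*, a protein of peripheral myelin, was at 143 CPM in KO 8 of the ventral striatum and at 23.6 to 31.2 CPM in the other 7, against 32.9 to 51.1 CPM in the hypothalamus. Among the fits that left out 1 library, *Pmp22* passed only without that one (log2 0.44, adjusted p = 7.76e-05, against 0.03 with it). *Tac2*, the neurokinin B precursor, varied widely between libraries, from 4.34 to 62.5 CPM in the ventral striatum. Its WT libraries there had 4.34, 18.6 and 6.34 CPM, and *Tac2* did not pass (log2 -0.35, SE 0.33, adjusted p = 0.452), with a log2 difference of 1.21 in WT, -1.15 in het and -1.27 in KO. *Ptgds*, the prostaglandin D synthase of the meninges and choroid plexus, ran from 116 to 700.5 CPM in the hypothalamus and from 80.1 to 120.3 CPM in the ventral striatum. *Gm10800*, a predicted gene of a repeat-like family whose copies share reads, ran from 6.51 CPM in WT 1 to 14440 CPM in het 6 of the ventral striatum and from 548 to 3277 CPM in the hypothalamus. Its difference between regions is uncertain for that reason.

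**Figure D5:**
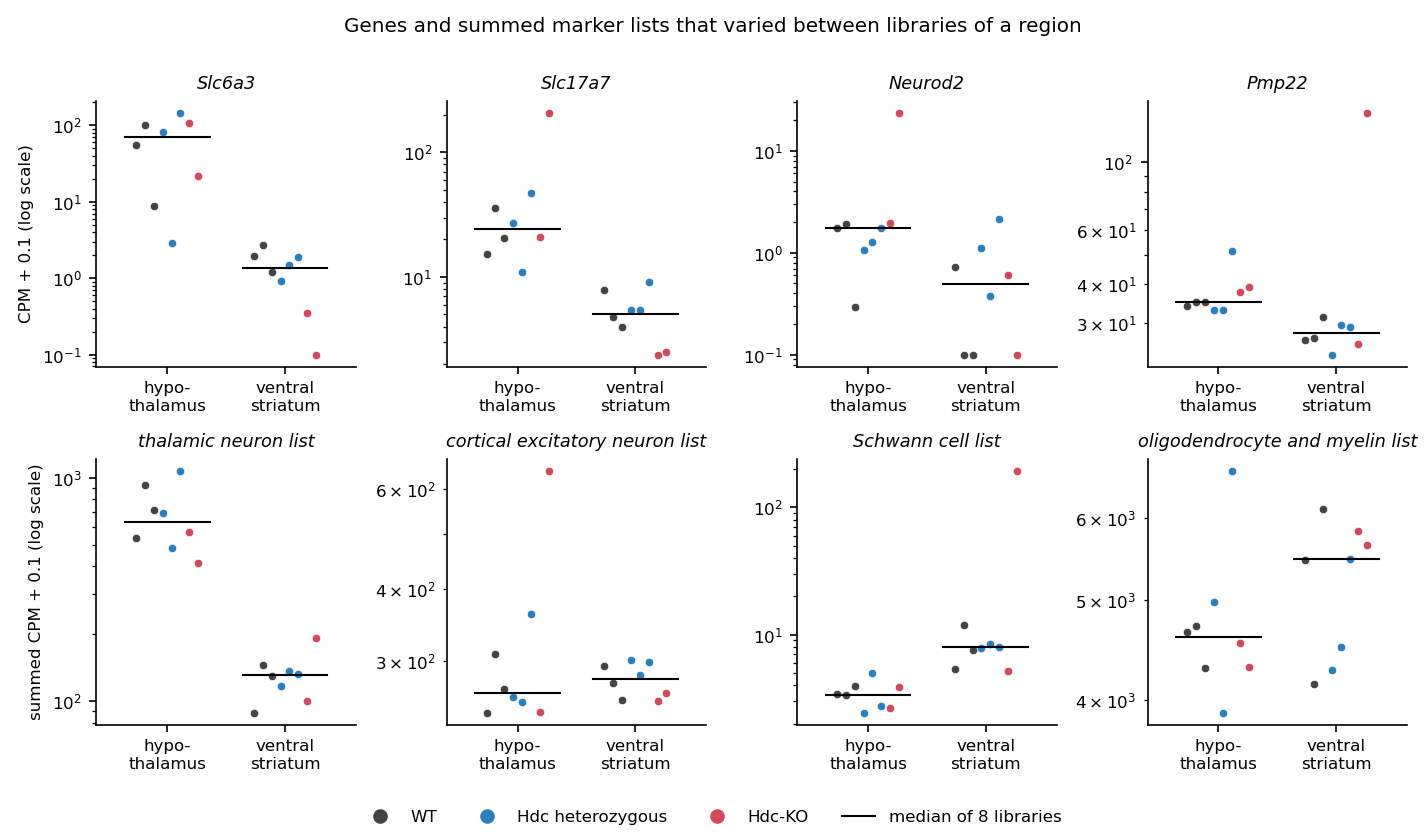
CPM plus 0.1 (log scale) of 4 genes (upper row) and summed over 4 marker lists (lower row) in each library. Each panel has its own axis range, with 8 points per region coloured by genotype and a bar at the region median. KO 8 of the hypothalamus is the highest of its region for *Slc17a7* (205 CPM) and *Neurod2* (23.2 CPM), and KO 8 of the ventral striatum for *Pmp22* (143 CPM).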

How the data were processed

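RNA-seq libraries were made from total RNA with a NuGEN Ovation V2 kit and sequenced as single 50-base reads. The deposited values are raw read counts per gene. The authors trimmed reads with Trimmomatic 0.32, removed ribosomal reads with Bowtie2 2.2.3, aligned to GRCm38 with STAR 2.3.1z8, used SAMtools 0.1.19 and counted unique reads on Ensembl 75 exons with HTSeq 0.6.1p1. Of all reads tallied, 45.3% to 54.2% lay on genes, and the tally lines were left out. Of 29878 identifiers, 28842 were named from GENCODE M21, which uses the same build.

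Counts of 16 libraries were fitted with edgeR 4.0.16 (R 4.3.3; glmFit and glmLRT, TMM scaling, genotype and region as terms), after a filter of 1 CPM in at least 2 libraries. Genes were called at a Benjamini-Hochberg adjusted p under 0.05. Changes of the region difference with genotype were contrasts in a model of the 6 group means. Log2 CPM used a prior count of 2. CPM in the text are scaled by TMM library size, and SE is that of the fitted log2 fold change. The quasi-likelihood test, DESeq2 1.42.0 and other scalings, filters and sample sets were alternatives, and 2 sets without libraries that carried neighbouring tissue markers were added after the data were seen. On simulated counts of 14620 genes the region test recovered 92 of 100 genes changed by 1 and 100 of 100 changed by 2 on the log2 scale, and the KO against WT test 48 and 91 of 100. Of 14220 unchanged genes, the region test falsely called 15 and the KO against WT test 19. By quasi-likelihood the KO against WT test falsely called 7 and recovered 45 and 87 of 100. Changes were planted only in genes above a minimum mean count, so recovery among genes with the lowest counts was not tested. The simulated libraries were independent of each other, and none carried neighbouring tissue.

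All 14 pairs of libraries within a group differed by more than counting noise (chi-square per degree of freedom 2.07 to 12.8). Named genes were *Hdc*, list members, the genes with the smallest p or the largest fold in each direction, those past the threshold for a change with genotype and those most variable within a region. *Necab1* and the genes that share exon bases were named after their values were seen. The members and lists were chosen with earlier results of these data known. List genes that were not in the files used here are not analysed, and results for some listed genes are not reported here. Floors for genes without counts use 3 counts over the 8 libraries, and counting intervals are at 95%.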

Additional observations from a re-analysis of the deposited data

Results flagged for a closer look

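Within each region, the highest and the lowest of the 8 libraries were compared with the rest by Dixon's test, for each gene named in the text and each marker list (mean log2 CPM). Of 248 sets of gene values 24 were past it, and of 70 sets of list values 7 were. Chance puts about 1 in 20 unselected groups past it. Some genes were named for their spread within a region or their change with genotype in these same data, so that share does not apply to them. Genes of 1 library are also not independent of each other.

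KO 8 of the hypothalamus stood apart for 9 genes. Genes of cortical and striatal neurons were high there: *Neurod2* at 23.2 CPM against at most 1.84 CPM in the other hypothalamus libraries, *Nrgn* at 237 CPM against at most 49.8 CPM, *Egr3* at 14.96 CPM, *Kcnh3* at 11.6 CPM, *Chrm1* at 48.5 CPM, *Chrm4* at 5.58 CPM and *Ankrd63* at 1.79 CPM. The mean level of the cortical excitatory list was 5.57 (log2 CPM) against 3.22 to 3.39 in the others, and that of the striatal cAMP and G protein list was 6.09 against 5.88 to 5.95. The astrocyte genes *Slc6a11*, at 860.3 CPM, and *Agt*, at 71.9 CPM, were the lowest of the region in that library. KO 8 of the ventral striatum stood apart for the peripheral myelin gene *Pmp22* (143 CPM) and for the Schwann cell list (3.11 against 0.354 to 1.15), and it had the lowest ventral striatum values of *Wfs1* (621 CPM) and *Meis2* (224 CPM).

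The other libraries stood apart for fewer genes. Het 6 of the hypothalamus was high for *Mbp* (2268 CPM), *Pmp22* (51.1 CPM) and the oligodendrocyte list (6.66) and low for *Avp* (3.89 CPM). Het 5 of the hypothalamus was high for *Pam* (359 CPM), *Gpr50* (44.1 CPM) and the Schwann cell list (0.668), KO 7 of the hypothalamus for the oligodendrocyte precursor list (3.96), and het 4 of the hypothalamus for *Ghsr* (10.7 CPM), while WT 3 of the hypothalamus was low for *Tac1* (8.78 CPM). In the ventral striatum, WT 1 was low for *Gm10800* (6.51 CPM) and for the ionotropic glutamate receptor list (6.17), het 4 was low for *Lepr* (0.203 CPM), WT 2 was high for *Pmch* (1.45 CPM) and *Shox2* (0.869 CPM), and WT 3 was high for *Nkx2-1* (12.7 CPM).

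The difference between regions itself changed with genotype, by a test of the change, for 7 genes between KO and WT, among them *Hdc* by -4.62 on the log2 scale, *Kcnh3* by 3.29, *Egr3* by 3.14, *Igfbp4* by 1.87, *Cbln2* by -1.86 and *Npy* by 1.23. Between het and WT it changed for *Hdc* alone, by -3.02. *Kcnh3* and *Egr3* are also among the genes for which a KO 8 library stood apart, and the part of neighbouring tissue in their change was not tested.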

How the results depend on the processing

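Of the 6715 region differences called in all 16 libraries, 6500 were called in the same direction by the edgeR quasi-likelihood test, 6036 by DESeq2, 5137 with library totals alone, 6143 to 6451 with 1 library left out (6243 to 6842 calls in all), 6364 without both KO 8 libraries, 5848 without the 4 libraries with neighbouring tissue markers, and 4176, 4031 and 1424 in WT, het and KO libraries alone. Fits to 1 genotype, with fewer libraries, called 4366 genes in WT (2178 higher in the hypothalamus), 4199 in het (2157 higher in the hypothalamus and 2042 in the ventral striatum) and 1453 in KO (737 and 716, of which 545 and 473 were at least 2-fold). Scaling to library totals alone called 6421 genes higher in the hypothalamus and 1671 in the ventral striatum. In 1 genotype alone, *Nrgn* was at 0.23 in KO libraries (-1.45 in all) and *Tac2* at 1.20 in WT libraries (-0.35 in all). Over all settings, 41 values of named genes lost their call, 22 gained one, 2 changed sign and 3651 stayed the same. For the genes whose region difference changed with genotype, 39 values lost their call and 145 kept it.

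Changes of the region difference between KO and WT, 7 genes, numbered 3 by DESeq2, 1 by the quasi-likelihood test, 12 without a filter on low counts, 15 with all 28 libraries in the fit, and 1 to 108 with 1 library left out: 57 without KO 7 and 1 without KO 8 of the hypothalamus, and 108 without KO 7, 2 without KO 8 and 18 without WT 3 of the ventral striatum. Between het and WT the quasi-likelihood test called 0 genes (459 at an unadjusted p under 0.05), the likelihood ratio test 1 (534) and DESeq2 1 (215). Leaving out 1 library gave 1 to 6 there: 6 without WT 2, and 3 without het 5, of the hypothalamus, 4 without KO 7 or KO 8, 3 without WT 2 and 2 without WT 3, het 4 or het 5 of the ventral striatum.

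With the replicate number as a block, 6699 genes were called for the region, 6557 of them among the 6715, 7 for KO against WT, 4 of which were shared with the fit without the block, and 1 for het against WT. Deviations from group means correlated between regions at -0.05 to 0.08 for libraries with the same number and at -0.09 to 0.05 for different numbers. With means of only 2 or 3 libraries, these correlations cannot show whether a number marks 1 mouse. The main fit did not pair the libraries, and whether it should was not settled. Depth, 3536802 to 5064759 counts, limits peptides and factors near 1 CPM, where folds rest on single counts.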

Other observations

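The lists below are read beside the 23.7% of all genes tested that were called higher in the hypothalamus and the 22.2% called higher in the ventral striatum. Among 9 tested peptide and synapse organizer genes known from both regions, 5 were called higher in the hypothalamus and 3 in the ventral striatum. *Cck*, cholecystokinin, was at 14.4 to 37.3 CPM in the hypothalamus and 1.55 to 5.39 CPM in the ventral striatum (log2 2.44, SE 0.19), and *Pnoc*, the nociceptin precursor, at 8.93 to 15.6 CPM against 0.62 to 5.52 CPM (log2 2.06, SE 0.22), neither with overlap. Of 6 septal markers, 3 were called higher in the hypothalamus and 2 in the ventral striatum, and *Zic1*, a zinc finger factor of the medial forebrain, was at 39.7 to 89.5 CPM in the hypothalamus against 17.0 to 35.3 CPM (log2 1.53, SE 0.14).

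Oligodendrocyte precursor genes were called higher in the ventral striatum for 3 of 6 and in the hypothalamus for 1, *C1ql1*. *Pdgfra*, the growth factor receptor of these cells, was at 39.5 to 52.3 CPM in the hypothalamus and 46.8 to 61.9 CPM in the ventral striatum (log2 -0.33, SE 0.07). Calls on the ventral striatum side numbered 0 with library totals alone, and the call on the hypothalamus side was lost without KO 7, WT 1 or het 4 of the hypothalamus. Of 8 choroid plexus genes, 1 was called higher in the hypothalamus and 2 in the ventral striatum (median -0.44), which is close to the shares of all genes. Calls on the ventral striatum side were 1 with library totals alone and 1 of 7 without the 4 libraries with neighbouring tissue markers, where the median was 0.12. Of 9 meningeal fibroblast genes 5 were called higher in the hypothalamus. Of 4 Schwann cell genes 3 were called higher in the ventral striatum (median -1.77), and without both KO 8 libraries 2 of 3 were, with 1 in the hypothalamus (median -1.03). Both pituitary genes tested, *Cga* and *Tshb*, were called higher in the hypothalamus at 2.35 CPM or less in every library. None of 5 red blood cell genes was called by the edgeR likelihood ratio test, its quasi-likelihood test or DESeq2, and 0 were at an unadjusted p under 0.05 by each.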
